A study of Mus musculus with 20 samples.

Results

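Lncbate1, Rab38, Smim1, Catsperd, Xlr4c, Gm10032, Gm45187 and Gm10440 are 8 genes chosen by their measured CPM values (library-scaled read counts), which were higher in each of 8 mouse liver libraries from animals given oxymetholone than in each of 10 libraries from animals not given it. They are 8 of the 16115 genes measured. All libraries came from male mice, collected after 18 months (of treatment, in the drug groups), and RNA was counted per gene by sequencing. The untreated wild-type group had 4 libraries, and every other group carried the Fancd2 mutation (genotype d2-/-): 3 untreated mutants, 3 given metformin, 5 given oxymetholone and 3 given both drugs, called the combination here. The Fancd2 protein acts in the repair of DNA crosslinks, the process that fails in Fanconi anaemia. Oxymetholone is a synthetic androgen given for bone marrow failure, and metformin is a glucose-lowering drug. No wild-type animals given a drug were among the groups, so the drug comparisons hold for mutants only.

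The 8 genes are not members of a known pathway. Lncbate1 is a long noncoding RNA known from brown fat, where it supports the thermogenic gene programme. Rab38 is a small GTPase that, with its close relative Rab32, directs cargo to lysosome-related organelles such as melanosomes. Smim1 encodes the small membrane protein of red blood cells that carries the Vel blood group. Catsperd encodes an auxiliary subunit of CatSper, the calcium channel of the sperm tail. Xlr4c belongs to the X-linked lymphocyte-regulated gene family, which lies on the X chromosome in near-identical copies. Gm10032, Gm45187 and Gm10440 are predicted genes, annotated by GENCODE as noncoding (2 intergenic and 1 antisense), and no role is stated for them here.

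By GENCODE release M21, Lncbate1 (ENSMUSG00000110613) lies on chromosome 8, Rab38 (ENSMUSG00000030559) and Gm45187 (ENSMUSG00000109130) on chromosome 7, Smim1 (ENSMUSG00000078350) on chromosome 4 and Catsperd (ENSMUSG00000040828) on chromosome 17. Xlr4c (ENSMUSG00000031362) lies on chromosome X, Gm10032 (ENSMUSG00000057913) on chromosome 14 and Gm10440 (ENSMUSG00000105912) on chromosome 5. The counts were made on build GRCm39 and that annotation is on GRCm38, so no gene coordinates are given.

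RefSeq held a promoter window (250 bases before to 50 after an annotated start, build GRCm38.p6) for 4 of the 8 genes, in 5 windows, since Catsperd has 2 starts. The 250 bases before the start are shown for Xlr4c, which had one of the largest differences with oxymetholone, and for Gm10440, the gene that did not overlap between oxymetholone and the combination. Capitals in the Xlr4c sequence mark the letters CCAAT, those of a common promoter element.
Xlr4c, minus strand, chrX:73243131-73243380: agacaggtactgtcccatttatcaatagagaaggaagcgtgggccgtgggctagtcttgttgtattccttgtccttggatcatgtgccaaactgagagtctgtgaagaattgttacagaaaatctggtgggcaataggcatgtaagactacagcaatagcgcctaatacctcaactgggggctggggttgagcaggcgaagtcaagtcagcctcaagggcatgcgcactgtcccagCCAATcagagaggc
Gm10440, plus strand, chr5:54349742-54349991: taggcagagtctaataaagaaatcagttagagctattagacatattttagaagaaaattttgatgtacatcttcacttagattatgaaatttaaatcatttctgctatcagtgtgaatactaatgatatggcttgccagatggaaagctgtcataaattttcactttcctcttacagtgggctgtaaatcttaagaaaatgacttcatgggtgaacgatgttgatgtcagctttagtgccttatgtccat

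These promoters had no letters in common that marked them out. Their G+C content was 50.4% for Xlr4c and 33.2% for Gm10440, against a median of 52.4% over all windows. On both strands of the 5 windows there was no match to AGAACA, the half-site of androgen and glucocorticoid receptors, which 19% of 32851 RefSeq windows held. There was also no match to the full palindromic androgen response element, which contains that half-site (0.00913% of windows), to TTCNNNGAA, bound by STAT factors (8.3%), or to TATAAA (13.6%). CCAAT (37.4% of windows) occurred in the windows of Xlr4c and Gm10440, in the latter after the start. GGGCGG (35.7%) occurred in the windows of Smim1 and of 1 Catsperd start, and CACGTG (7.15%) in the same Catsperd window. These matches describe letters only, and they say nothing of sites outside these windows.

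Depth was 20.2 to 32.7 M counts per library. Levels are given as CPM, read counts relative to a library size that TMM scaling had corrected for differences in RNA composition. Differences are log2 differences ± SE from 1 edgeR quasi-likelihood fit over all 18 libraries, and adjusted p is Benjamini-Hochberg over 16115 genes with a threshold of 0.05. Metformin replicate 3 and combination replicate 3 stood apart from the other libraries, with median correlations of 0.926 and 0.916 with the rest against 0.942 to 0.964 elsewhere. Combination replicate 3 also had the highest TMM factor (1.31). Nothing in the labels ties each library to an animal of its own, so p-values measure only the spread between these libraries, which may be technical.

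The members' separation between libraries is the rule itself and is described without a test. Among all genes measured, 13 met it (0.0807% of genes), which were the 8, together with Wif1, Paqr8, Cyp2a4, Corin and Hspa8, Corin and Hspa8 being named after their values were seen. The margin, the lowest of the 8 oxymetholone libraries divided by the highest of the 10 others, was 8.45 for Lncbate1, 2.38 for Rab38, 1.63 for Gm10032, 1.47 for Xlr4c, 1.31 for Gm45187, 1.2 for Catsperd and 1.05 for Smim1. Gm10440 lay at the threshold with 1.003. The genes nearest outside it were Ubtd1 (0.9893), Sgtb (0.97) and Atp6v0e (0.951). With DESeq2's size factors 12 genes met the rule, and Gm10440 no longer did while the other 7 did. In raw counts, without library scaling, 7 genes met the rule, with 5 of the 8 among them, and Smim1, Catsperd and Gm45187 did not. In the log2 residuals that the authors deposited, from which further factors had been removed, 37 genes met the rule. With 5 of the 8 among them, Catsperd, Xlr4c and Gm45187 were not.

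**Figure D1:**
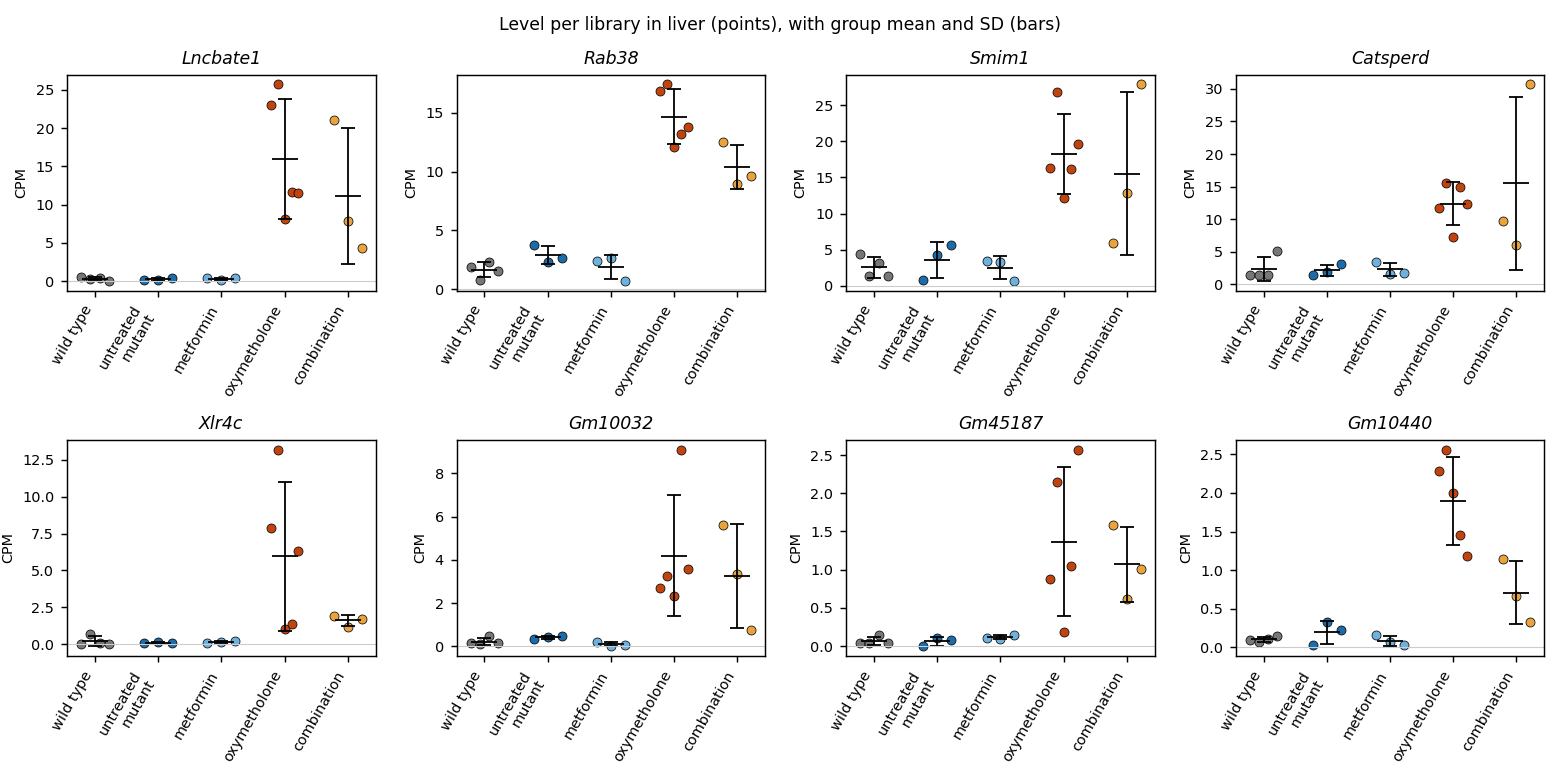
CPM of each gene in each library (points) by group, with the group mean (horizontal line) and SD (bars), on a linear axis per gene. Every oxymetholone and combination library lies above every other library, narrowly so for Gm10440 (0.329 against 0.328 CPM) and widely for Lncbate1 (4.28 against 0.506 CPM).

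Lncbate1 was close to undetected in livers without oxymetholone and present in all that received it. In wild type its level was 0.506, 0.285, 0.358 and 0.0771 CPM, from 2 to 11 counts. Untreated mutants had 0.142, 0.109 and 0.44 CPM, and metformin mutants 0.368, 0.0991 and 0.406 CPM. These 3 groups overlapped fully, and no library in them exceeded 14 counts. With oxymetholone the level was 23.0, 25.7, 8.14, 11.6 and 11.5 CPM, and with the combination 21.1, 7.85 and 4.28 CPM. Both groups held high and low libraries, and combination replicate 1 lay close to the upper oxymetholone libraries. The log2 difference was 6.04 ± 0.78 for oxymetholone against untreated mutants and 5.24 ± 0.77 for the combination against metformin mutants. Without single libraries these values were 5.76 to 6.91 (the latter without untreated mutant replicate 4) and 4.37 to 5.64 (the former without combination replicate 1). Per kilobase of exon Lncbate1 was the highest of the 8 genes in oxymetholone livers, at 19.7 CPM per kb.

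Rab38, the trafficking GTPase, was expressed at a low level everywhere and was the most even of the 8 genes with oxymetholone. Its level was 1.89, 0.819, 2.36 and 1.58 CPM in wild type and 3.77, 2.3 and 2.68 CPM in untreated mutants. Metformin mutants had 2.37, 2.64 and 0.724 CPM. The groups overlapped, although 2 of the 3 untreated mutants lay above every wild type. Oxymetholone mutants had 16.8, 17.4, 12.1, 13.2 and 13.8 CPM, a coefficient of variation (CV) of 15.9%, and combination mutants 12.5, 8.97 and 9.64 CPM. Of the 3 combination libraries, 1 fell within the oxymetholone range and the others below it. The log2 difference was 2.32 ± 0.40 for oxymetholone against untreated mutants and 2.45 ± 0.42 for the combination against metformin mutants. Rab38's biological coefficient of variation, edgeR's measure of spread between libraries, was 0.346, against a median of 0.361 over all genes, while those of the other 7 genes were 0.435 to 0.811.

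Smim1 was measurable in all livers, and its margin lay between combination replicate 1 at 5.94 CPM and untreated mutant replicate 4 at 5.69 CPM. Wild-type livers had 4.42, 1.39, 3.12 and 1.39 CPM and untreated mutants 0.781, 4.21 and 5.69 CPM. Metformin mutants had 3.47, 3.33 and 0.695 CPM. Each of these groups held high and low libraries. The level was 16.3, 26.9, 12.1, 16.2 and 19.6 CPM with oxymetholone and 5.94, 12.8 and 27.9 CPM with the combination. Combination replicate 3 was the highest and combination replicate 1 the lowest of the 8. The log2 difference was 2.36 ± 0.68 for oxymetholone and 2.65 ± 0.73 for the combination against the respective group without it, and the latter was 1.92 without combination replicate 3.

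Catsperd, the sperm channel subunit, followed a like pattern. Wild-type livers had 1.47, 1.42, 1.47 and 5.05 CPM, untreated mutants 1.42, 1.91 and 3.15 CPM, and metformin mutants 3.47, 1.65 and 1.77 CPM. The value of 5.05 CPM in wild-type replicate 4 was the highest of the 10 libraries without oxymetholone. Oxymetholone mutants had 11.7, 15.5, 7.28, 15.0 and 12.3 CPM, and combination mutants 9.71, 6.07 and 30.7 CPM, the last in combination replicate 3. The log2 differences were 2.51 ± 0.58 and 2.77 ± 0.62, and the latter was 1.79 without combination replicate 3.

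Of the other genes of the CatSper channel, only Catsper2, which encodes a pore subunit, and Catspere2 were among the genes measured, of 15 listed. Catsper2 had 3.47 ± 0.379 CPM in untreated mutants (SD, n = 3) and 3.39 ± 0.691 CPM in oxymetholone mutants (SD, n = 5). Its mean log2 effect of oxymetholone, the average of the effects with and without metformin, was 0.11 ± 0.21 (edgeR adjusted p = 1). Catsper2 had 3.2 ± 0.715 CPM in metformin mutants and 3.86 ± 1.48 CPM in combination mutants (SD, n = 3 each). Germ cell markers were nearly absent. Of 10 listed, Sycp3 and Zpbp were measured, with a summed level of 0.71 to 2.58 CPM over all libraries and no difference called.

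Xlr4c had among the largest differences and the widest spread of the 8 genes (biological coefficient of variation 0.811, at or above that of 95% of genes). Its level was 0, 0.712, 0.0716 and 0.0385 CPM in wild type, from 0 to 20 counts. Untreated mutants had 0.071, 0.164 and 0.0734 CPM and metformin mutants 0.0526, 0.132 and 0.232 CPM. Only wild-type replicate 2 stood out there. Oxymetholone mutants fell into 3 libraries at 7.89, 13.2 and 6.31 CPM and 2 at 1.05 and 1.34 CPM. Combination mutants had 1.93, 1.17 and 1.72 CPM, all near the lower oxymetholone libraries. The log2 difference was 5.86 ± 1.18 for oxymetholone, from 2 or 3 counts in each untreated mutant library, and 3.41 ± 1.10 for the combination.

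Counting of Xlr4c is uncertain because its copies are alike. In GENCODE transcripts 63.8% of its 50-base stretches also occurred in another gene, 55.9% in Xlr4b and 48% in Xlr4a, so reads could be split among them. The copies did not show the same levels. Xlr4b ranged from 0.0801 to 1.2 CPM over the 8 oxymetholone libraries and reached 6.89 CPM in metformin replicate 1, where Xlr4c had 0.0526 CPM. Xlr4a reached 2.76 CPM in oxymetholone replicate 4, where Xlr4c was at 1.34 CPM. Of 5 other family members measured (9 listed), none was called for the mean effect of oxymetholone, with 3 higher and 2 lower. Xlr3a was at −0.93 ± 0.70 (edgeR adjusted p = 1) with 14.9 ± 5.44 CPM in untreated mutants (SD, n = 3) and 3.8 ± 2.61 CPM in oxymetholone mutants (SD, n = 5). It had 7.81 ± 8.59 CPM in metformin mutants and 8.3 ± 9.35 CPM in combination mutants (SD, n = 3 each).

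The 3 predicted noncoding genes were low in all groups. Gm10032 had 0.184, 0.107, 0.466 and 0.154 CPM in wild type, 0.355, 0.437 and 0.477 CPM in untreated mutants and 0.211, 0.033 and 0.0869 CPM in metformin mutants. It had 2.72, 3.26, 2.33, 9.09 and 3.6 CPM with oxymetholone and 5.6, 3.36 and 0.776 CPM with the combination. Oxymetholone replicate 4 was high and combination replicate 3 low. The log2 differences were 3.30 ± 0.70 and 4.93 ± 0.84.

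Gm10440 had at most 6 counts in any library without oxymetholone (0.029 to 0.328 CPM). Its level was 2.28, 2.56, 2.0, 1.46 and 1.19 CPM with oxymetholone and 1.14, 0.663 and 0.329 CPM with the combination. All combination libraries thus lay below all oxymetholone libraries. The log2 differences from the groups without oxymetholone were 3.31 ± 0.61 and 3.12 ± 0.70.

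Gm45187 had 0 to 5 counts in any library without oxymetholone (0 to 0.145 CPM). It had 0.881, 2.15, 0.19, 1.05 and 2.57 CPM with oxymetholone and 1.59, 0.612 and 1.01 CPM with the combination. Oxymetholone replicate 3 had 4 counts, against 5 in metformin replicate 4, so its place above the threshold rested on library scaling. The log2 differences were 4.51 ± 0.89 and 3.13 ± 0.83. Gm45187 lies on the strand opposite Uvrag, an autophagy gene, and 47% of its 50-base stretches also occur in Uvrag transcripts on either strand. How strand was used in counting is not given in the sources used here, so reads from these shared stretches cannot be told apart. Uvrag had 24.9 to 44.9 CPM in the 10 libraries without oxymetholone and 22.7 to 38.8 CPM in the 8 with it.

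Whether metformin altered these genes in oxymetholone-treated livers was tested by comparing combination with oxymetholone mutants. The rule did not compare these groups, but it required every combination library to exceed all 10 libraries without oxymetholone. A gene that fell to their level with the combination could not be among the 8, so the size of a drop was limited by the choice of genes. The combination was lower in 7 of 8 genes, with a median log2 difference of −0.44 against 0.02 over all genes, but none passed. EdgeR called 0 of 16115 genes in this comparison (0% of genes). At an unadjusted p under 0.05 there were 461 genes in edgeR, 587 in DESeq2 and 563 in limma-voom. By adjusted p DESeq2 gave 1 gene and limma-voom 0. The 8 genes are not independent of each other across libraries, so the count of 7 is a description.

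Gm10440 and Xlr4c lay farthest down with the combination. Gm10440 was at −1.44 ± 0.53 (edgeR adjusted p = 0.956, unadjusted p = 0.0152), and the separation of its libraries was shared by 0.372% of all genes in that direction. None of the 8 lay higher in every combination library than in every oxymetholone library, where 0.763% of all genes did. Xlr4c was at −1.89 ± 0.88 (edgeR adjusted p = 0.956, unadjusted p = 0.0475). Without combination replicate 3, which stood apart, the values were −1.07 for Gm10440 and −1.94 for Xlr4c.

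Lncbate1 was at −0.53 ± 0.56 (edgeR adjusted p = 0.956), a 95% interval of 0.301 to 1.59-fold, at −0.14 without combination replicate 3 and at −1.40 without combination replicate 1. Rab38 was at −0.50 ± 0.36 (edgeR adjusted p = 0.956), with an interval of 0.414 to 1.21-fold, and at −0.45 without that library. For Rab38 a drop below 0.414 of the oxymetholone level thus lies outside the interval, while a smaller one is not excluded. Gm45187 was at −0.37 ± 0.63 (edgeR adjusted p = 0.959), and at −0.01 without oxymetholone replicate 5.

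The sign depended on single libraries for 3 genes. Catsperd was at 0.33 ± 0.51 (edgeR adjusted p = 0.957) and at −0.65 without combination replicate 3. Smim1 was at −0.23 ± 0.61 (edgeR adjusted p = 0.97), at −0.96 without combination replicate 3 and at 0.16 without combination replicate 1. Gm10032 was at −0.38 ± 0.59 (edgeR adjusted p = 0.957), at 0.09 without combination replicate 3, at 0.11 without oxymetholone replicate 4 and at −1.04 without combination replicate 1. The deposited table of the authors also calls none of the 8 for this comparison, with a lowest adjusted p of 0.937. It gives the opposite sign for Catsperd (−0.25) and Gm10032 (0.01), and the same sign for the rest.

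Markers of other cells moved between the same groups, with 0 called. All 8 measured bile duct markers were higher with the combination than with oxymetholone (median log2 difference 1.98), as were 10 of 11 lymphocyte markers (0.47) and both fat cell markers (1.48). Among combination libraries every bile duct marker was highest in replicate 3, which stood apart. Krt19 had 0.644, 0.714 and 13.1 CPM, and the summed bile duct level had a median of 88.8 CPM, against 80.7 CPM with oxymetholone. Fabp4, a fat cell marker, had 8.82, 9.79 and 103 CPM, and Cidec, the other, 9.61, 6.58 and 6.7 CPM. Of 9 measured erythroid markers 8 were lower (−0.33), and of 9 brown fat genes 7 were lower (−0.41). The median over all genes was 0.02, and the part of these cells in the differences of the 8 genes was not tested.

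Metformin without oxymetholone was compared in the same way, in 3 metformin and 3 untreated mutants. The rule required every library of these groups to lie below all 8 oxymetholone libraries. A gene that metformin alone raised to that level could not be among the 8, so the size of a rise was limited. None of the 8 genes passed, and edgeR called 0 of 16115 genes (0% of genes). There were 914 genes at an unadjusted p under 0.05 in edgeR, 1057 in DESeq2 and 2202 in limma-voom. By adjusted p DESeq2 gave 11 genes and limma-voom 0. Gm10032 was lower in every metformin library than in every untreated mutant (−2.02 ± 0.84, edgeR adjusted p = 0.797, unadjusted p = 0.029), a separation shared by 3.32% of all genes in that direction. In the opposite direction 0 of the 8 separated, against 3.94% of all genes. It rested on 1 to 4 counts with metformin against 8 to 13 without, and was −2.70 without metformin replicate 1. The authors' deposited table gives the opposite sign for Gm10032 here, a log2 fold change of 0.23. Gm10440 was at −1.24 ± 0.75 and Rab38 at −0.62 ± 0.41 (edgeR adjusted p = 0.927 for both), and Lncbate1 at 0.27 ± 0.81 (edgeR adjusted p = 0.962). Lncbate1 had between 2 and 14 counts in these 6 libraries, so a change was detectable only if large. Its sign turned without metformin replicate 4 (−0.13) and without untreated mutant replicate 2 or 3 (−0.01 each), and it was 1.14 without untreated mutant replicate 4. Gm10440 was at −1.89 without metformin replicate 1.

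Whether the metformin effect differed with and without oxymetholone was tested as an interaction. The choice of genes limited the size of both effects, and so of their difference. None of the 8 passed (edgeR adjusted p = 0.863 to 0.969), and edgeR called 0 genes of 16115 (0% of genes). Unadjusted p was under 0.05 for 483 genes in edgeR, 606 in DESeq2 and 1719 in limma-voom. By adjusted p DESeq2 gave 3 genes and limma-voom 0. The largest values were −2.45 ± 1.56 for Xlr4c, 1.63 ± 1.01 for Gm10032 and −1.38 ± 1.20 for Gm45187 (edgeR adjusted p = 0.863 for each). Gm10032 was at 0.97 without combination replicate 1 and at 2.32 without metformin replicate 1, and Gm45187 at −0.75 without untreated mutant replicate 2. For Rab38 the difference was 0.12 ± 0.54 (edgeR adjusted p = 0.957), with a 95% interval of 0.487 to 2.44-fold. Its sign turned without metformin replicate 4 (−0.28), untreated mutant replicate 2 (−0.11) or combination replicate 1 (−0.03).

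**Figure D2:**
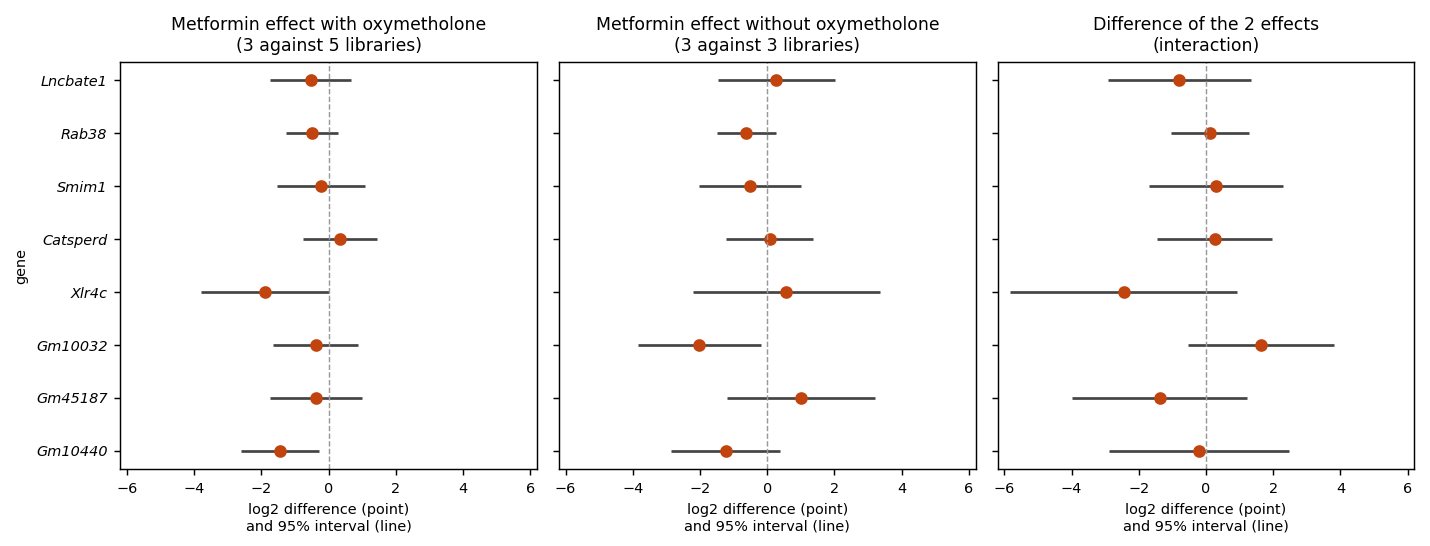
Log2 difference (point) with its 95% interval (line) for each gene, for metformin added to oxymetholone, metformin alone, and the difference of these effects, with 0 as a dashed line. With oxymetholone 7 of 8 points lie below 0, and the line of Gm10440 alone (−2.59 to −0.29) does not reach 0 there.

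The mutation itself made no called difference. The choice of genes limited the size of one, since libraries of both groups had to lie below all 8 oxymetholone libraries. Between untreated mutants and wild type 4 of the 8 genes were higher and 4 lower, and the libraries of the groups overlapped for each of them, where 2.5% of all genes were higher in every mutant and 3.82% in every wild type. EdgeR called 0 of 16115 genes (0% of genes), as did DESeq2 and limma-voom. The tools differed at an unadjusted p under 0.05, with 416 genes in edgeR (2.58%), 559 in DESeq2 (3.49%) and 4074 in limma-voom (25.3%). Rab38 was at 0.81 ± 0.38 (edgeR adjusted p = 0.973, unadjusted p = 0.0488), with 1.66 ± 0.648 CPM in wild type (SD, n = 4) and 2.91 ± 0.762 CPM in untreated mutants (SD, n = 3). Xlr4c was at −1.08 ± 1.19 (edgeR adjusted p = 0.973) and at 1.23 without wild-type replicate 2.

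Within the 8 oxymetholone libraries the genes did not vary as 1 unit. Correlations of log2 CPM between pairs of the genes are given as a description over 8 libraries that share 2 treatment groups and their scaling. Over 28 pairs the median Pearson r was 0.37, with a range of −0.49 to 0.86, and 0.55 without combination replicate 3. Rab38 went with Gm10440 (0.86), Lncbate1 (0.84) and Xlr4c (0.81), and these pairs had r = 0.86, 0.80 and 0.83 without combination replicate 3. Smim1 went with Catsperd (0.67, and 0.54 without that library). Catsperd and Rab38 had r = 0.11 over 8 libraries and 0.82 without combination replicate 3, so this pair turned on that library.

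Oxymetholone replicate 2 was among the highest 2 of the 8 libraries for 7 genes. Combination replicate 2 was among the lowest 2 for 6 genes and oxymetholone replicate 3 for 5. Combination replicate 3 was mixed, being the lowest for Lncbate1, Gm10032 and Gm10440 and the highest for Smim1 and Catsperd.

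**Figure D3:**
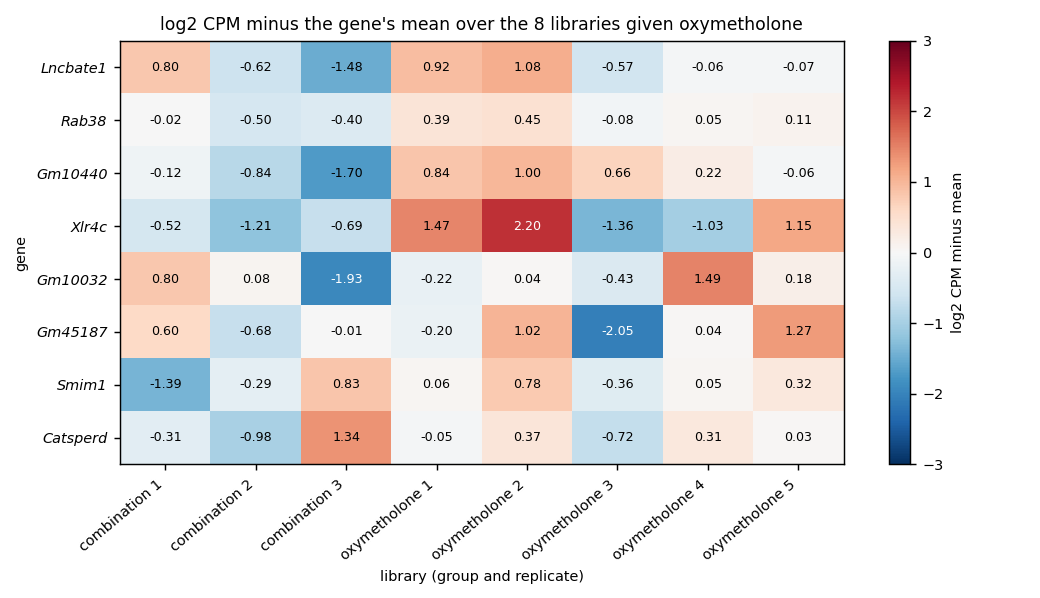
Log2 CPM of each gene (rows) minus its mean over the 8 libraries given oxymetholone (columns), with the value in each cell and red for higher. Combination replicate 3 is low for Lncbate1 (−1.48), Gm10440 (−1.70) and Gm10032 (−1.93) and high for Smim1 (0.83) and Catsperd (1.34).

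Over all 18 libraries the genes whose log2 CPM was most like that of Lncbate1, among 12500 genes with a mean of at least 0 on the log2 scale, were Wif1 (r = 0.92), Paqr8 (0.90) and Cyp2a4 (0.85). For Rab38 they were Paqr8 (0.88), Sgtb (0.85) and BB123696 (0.85). Wif1, Paqr8 and Cyp2a4 met the same rule, so their likeness in part restates it. With the combination Wif1 had 24.4, 14.3 and 9.57 CPM against 16.3 to 44 CPM with oxymetholone, the same order of libraries as Lncbate1 (21.1, 7.85 and 4.28 CPM). The order differed in the 5 oxymetholone libraries, where Wif1 was lowest in replicate 4 and Lncbate1 in replicate 3. Paqr8 had 10.9, 9.94 and 13.1 CPM with the combination, another order.

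No gene beside the 8 on the chromosome was called for oxymetholone. Up to 3 measured genes on each side within 200 kb, and genes overlapping a member, gave 27 neighbours of 7 genes, while Gm10440 had none. For the mean effect of oxymetholone in mutants edgeR called 20 of 16115 genes (0.124% of genes) and 0 of these 27, of which 1 had an unadjusted p under 0.05. Their median log2 difference was −0.02, with 12 higher, 14 lower and F8a at 0.00, and a range of −0.64 to 0.45, against a median of −0.01 over all genes. Zfhx3, a transcription factor gene overlapping Lncbate1 on the other strand, was at 0.11 ± 0.44, Ctsc, the cathepsin C gene next to Rab38, at −0.08 ± 0.30, and Lrrc47, which overlaps Smim1, at −0.02 ± 0.40 (edgeR adjusted p = 1 for each). Zfhx3 had 1.6 to 19.4 CPM in the 8 libraries with oxymetholone and 2.35 to 6.74 CPM in the others. Lncbate1 shared 0% of its 50-base stretches with transcripts of any other gene, Zfhx3 included. Smim1 shared 16% with Lrrc47 transcripts, where reads of the pair cannot be told apart without strand. Adra1a, an adrenergic receptor gene next to Gm10032, was at 0.45 ± 0.29 (edgeR adjusted p = 1).

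**Figure D4:**
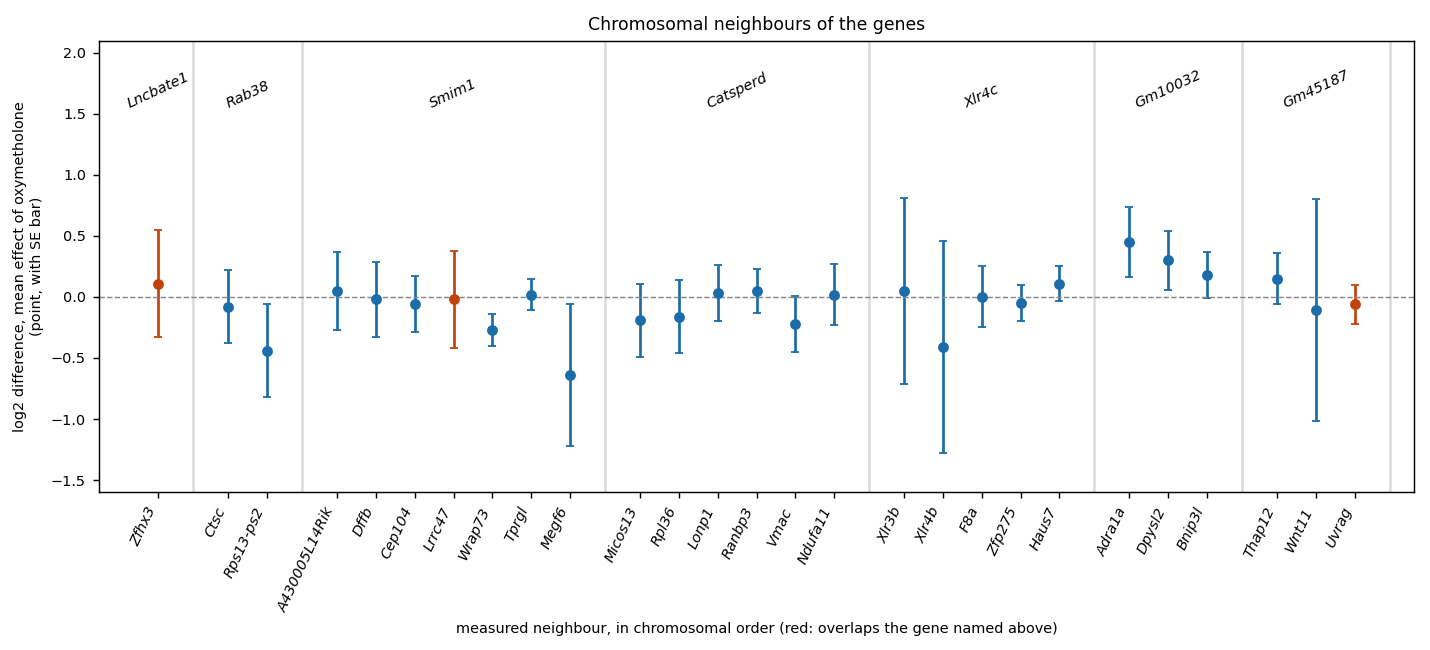
Log2 difference for the mean effect of oxymetholone (point) with SE (bar) for each measured neighbour, in chromosomal order, grouped under the gene it neighbours, with overlapping genes in red. All 27 points lie between −0.64 and 0.45, and no neighbour was called.

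Genes that work with Lncbate1 or Rab38 in other tissues were not called either. Of 17 brown fat genes listed 9 were measured, with 0 called for the mean effect of oxymetholone, 4 higher and 5 lower (median log2 difference −0.13). Adrb3, the adrenergic receptor of fat, was at −1.35 ± 0.43 (edgeR adjusted p = 0.558), and Cebpb, a transcription factor, at 0.54 ± 0.30 (edgeR adjusted p = 1). The defining brown fat genes Ucp1, Cidea and Prdm16 were not among the genes measured. All 24 listed genes of Rab38 and Rab32 trafficking were measured, with 0 called, 12 higher and 12 lower (median 0.01). Rab32 had 89.3 ± 7.7 CPM in untreated mutants (SD, n = 3) and 61.3 ± 13.2 CPM in oxymetholone mutants (SD, n = 5). It had 61.8 ± 14.5 CPM in metformin mutants and 65 ± 8.52 CPM in combination mutants (SD, n = 3 each). Its mean effect of oxymetholone over both comparisons was −0.24 ± 0.16 (edgeR adjusted p = 1). Mreg, a melanosome transport gene, was at −0.76 ± 0.23 (edgeR adjusted p = 0.52).

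None of the measured markers of other cell types was called. In bulk liver, more cells of a type and more RNA per cell cannot be told apart. Hepatocyte markers were high in all libraries (9 of 10 listed, summed level 39300 to 99100 CPM), as labelled for liver. Erythroid markers (9 of 18 measured, 0 called) summed to 463 to 3830 CPM in untreated mutants, while oxymetholone mutants had 439 to 2460 CPM and combination mutants 1080 to 2480 CPM. Of melanocyte markers Mitf and Pmel were measured of 6 listed, with a sum of 2.5 to 4.47 CPM over all libraries. Fat cell markers were Fabp4 and Cidec of 7 listed (0 called), with a sum of 9.06 to 14 CPM in untreated mutants and 7.05 to 21.4 CPM after oxymetholone. The combination gave 16.4 to 110 CPM, the highest in replicate 3. Adipoq and Plin1, which define fat cells, were not among the genes measured. Lymphocyte markers (11 of 12 measured, 0 called) summed to 10.4 to 21.6 CPM in untreated mutants and 15.9 to 34.9 CPM after oxymetholone, and the combination gave 28.5 to 48 CPM. Metformin mutants had sums of 13.7 to 28.5 CPM for fat cell markers and 18.8 to 30.7 CPM for lymphocyte markers. Wild types reached 40 CPM for lymphocyte markers. The part of these cells in the results was not tested.

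Bile duct markers (8 of 9 measured, 0 called) were all lower for the mean effect of oxymetholone (median −0.72) and varied between single libraries, with sums of 61.2 to 1470 CPM in untreated mutants and 43.8 to 424 CPM after oxymetholone, and the combination gave 52.7 to 679 CPM. Metformin mutants had 35.2 to 690 CPM, the highest in replicate 3. Platelet markers (3 of 8 measured, 0 called) summed to 2.76 to 11.2 CPM over all libraries. Over the 12 lists 86 of 145 genes were measured, and edgeR called 0 of them for the mean effect of oxymetholone (5 at an unadjusted p under 0.05) and 0 for the combination against oxymetholone (7 at an unadjusted p under 0.05).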

How the data were processed

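Liver RNA of 20 labelled samples was sequenced, of which 18 libraries were used. The remaining samples, replicate 1 of the untreated mutants and replicate 2 of the metformin group, are not analysed here. Replicate numbers follow accession order, as the labels give none. The authors deposited raw counts per gene, per the file headers, with GRCm39 as the build, per the submitters' processing notes. Aligner, counting program and strand setting were not given in the sources used here. Deposited CPM signal values equal edgeR's TMM-scaled CPM computed from the counts (largest relative difference 5e-08). The authors also deposited log2 residuals and a table of p-values, adjusted p and log2 fold changes for their own comparisons, per the file headers. In every deposited gene the third-highest library had at least 0.401 CPM of the total count, a filter that all 8 genes passed. Gm10032, Xlr4c, Gm45187 and Gm10440 passed it only through the oxymetholone libraries. Without oxymetholone Gm45187 reached at most 0.145 and Gm10440 0.328 TMM-scaled CPM, and Xlr4c exceeded it only in wild-type replicate 2 (0.712). Gm10032 exceeded it, in CPM of the total count, only in wild-type replicate 3 and untreated mutant replicate 4 (13 counts each). Listed genes described as not measured are absent from the deposited genes, and their levels are not known here.

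Counts were fitted with edgeR 4.0.16 in R 4.3.3 (TMM, robust quasi-likelihood, 1 coefficient per group, all 18 libraries, filterByExpr removing 0 genes). SE is the log2 difference divided by the square root of F, and 95% intervals use 13 residual degrees of freedom. Log2 CPM used a prior count of 2. Alternatives were DESeq2 1.42.0, its size factors in edgeR, a mean CPM of at least 1 (12737 genes), the compared groups alone, limma-voom 3.58.1 with quality weights, and leaving out libraries. The procedure was also run on simulated counts in which genes with a mean CPM of at least 1 were changed in the combination group. Its outcome is not given here, and it did not cover changes in genes of lower level. The 8 genes and the lists were chosen with earlier results of these data known. Named genes were the 8, the 3 most correlated genes for Lncbate1 and Rab38, neighbours, the 3 genes nearest outside the rule, the others that met it, and the 2 of each list with the smallest p. Neighbours came from RefSeq (GRCm38.p6) for 6 genes and, where RefSeq had no row, from GENCODE for 2. The CCAAT, GC-box and E-box motifs were added after the sequences were seen.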

Additional observations from a re-analysis of the deposited data

Results flagged for a closer look

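In the 16 groups of 4 or 5 libraries (wild type and oxymetholone, 8 genes each) 4 held a library far from the others of its group. Chance gives about 1 in 20 for normally distributed values. That rate need not hold for CPM from low counts, so the number flagged is a description. Wild-type replicate 4 had 5.05 CPM of Catsperd, against at most 1.47 in the other wild types. Wild-type replicate 2 had 0.712 CPM of Xlr4c (20 counts), against at most 0.0716. Wild-type replicate 3 had 0.143 CPM of Gm45187, which is 4 counts against 1 in each of the other wild types. Oxymetholone replicate 4 had 9.09 CPM of Gm10032, against at most 3.6 in the other oxymetholone livers.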

How the results depend on the processing

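No test of the 8 genes crossed the threshold under any alternative run, but sizes and signs moved. With limma-voom the metformin difference was −1.72 for Smim1 and −1.23 for Rab38, and without combination replicate 1 the combination against oxymetholone was −1.40 for Lncbate1. Among values of the 8 genes, the sign was opposite in 7 of 110 alternatives for the combination against oxymetholone, 8 of 89 for metformin alone, 9 of 97 for the mutation and 16 of 158 for the interaction, and the cause was not tested. With limma-voom Catsperd was at −0.45, −0.18, 0.11 and −0.27 in these 4 comparisons, Xlr4c at 0.45 and Gm45187 at 0.10 for the mutation, and Gm10440 at 0.98 for the interaction. Without metformin replicate 3 and combination replicate 3 together, Catsperd was at −0.66 and Gm10032 at 0.09 for the combination against oxymetholone, and Smim1 at −0.17, Catsperd at −0.92 and Gm10440 at 0.06 for the interaction. Leaving out 1 library at a time gave ranges across 0 for the combination against oxymetholone (Smim1 −0.96 to 0.16, Catsperd −0.65 to 0.71, Gm10032 −1.04 to 0.11), for metformin alone (Lncbate1 −0.13 to 1.14, Smim1 −1.0 to 0.01, Catsperd −0.34 to 0.46), for the mutation (Smim1 −0.06 to 0.95, Catsperd −0.50 to 0.57, Xlr4c −1.50 to 1.23, Gm45187 −0.81 to 0.46) and for the interaction (Rab38 −0.28 to 0.45, Smim1 −0.44 to 0.77, Catsperd −0.72 to 0.67, Gm10440 −0.73 to 0.45). DESeq2 called 1 gene for the combination against oxymetholone, 11 for metformin, 3 for the interaction and 79 for the mean effect of oxymetholone, where edgeR called 0, 0, 0 and 20. With a mean CPM of at least 1 that last count was 12, and without single libraries it was 9 to 18 (9 without untreated mutant replicate 4 or metformin replicate 1, 10 without untreated mutant replicate 3, 11 without oxymetholone replicate 1, 12 without oxymetholone replicate 5, and 13 without untreated mutant replicate 2, oxymetholone replicate 2 or combination replicate 1). With CPM of the total count, added after the data were seen, all 8 genes met the rule. Differences of the 8 genes with oxymetholone kept their sign in all 204 alternatives, and 6 of these moved by more than 1 SD (Rab38, Smim1 and Catsperd, combination against metformin). The rule chose the genes by this separation, so the kept sign was largely fixed in advance and is no separate support. Low counts without oxymetholone limit Lncbate1, Xlr4c and the predicted genes. No paired analysis was possible because the labels carry no replicate numbers.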
